A study of Homo sapiens with 9 samples.

Results

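Glutathione synthesis and the ferroptosis defences that do not run through the glutathione peroxidase GPX4 were followed here through 10 genes, GCLC, GCLM, GSS, GSR, CISD1, NFS1, DHODH, COQ2, AIFM2 and GCH1. Every array probe annotated to one of these genes was taken, whatever its signal, which gave 17 of the 47323 probes on the array. Of these, 13 probes had a signal above background on 3 or more of the 9 arrays, a condition that 18185 probes of the array met, and 9 of the 10 genes entered the tests among 10307 genes in all. AIFM2 was the gene without a measurable probe.

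Ramos is an established line of human Burkitt's lymphoma, a malignancy of B cells, grown here at passage 10 to 15. The cells received either HDL NPs at 40 nM, which are cholesterol-poor nanoparticles built to resemble high-density lipoprotein, human HDL at 40 nM, the native cholesterol-rich particle, or PBS, the vehicle. RNA was taken after 48 h from 3 biological replicates of each condition and hybridized to Illumina HT-12 arrays, 1 array per replicate. All values come from a single cell line, dose and time, and an RNA level in such bulk samples does not separate fewer cells that express a gene from less RNA per cell.

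Ferroptosis is a form of cell death in which iron drives the peroxidation of membrane lipids. Glutathione, a tripeptide made by glutamate-cysteine ligase (GCLC and GCLM) and then glutathione synthetase (GSS), is the reducing agent that GPX4 spends when it clears lipid peroxides, and glutathione reductase (GSR) restores it. Other systems act beside GPX4: coenzyme Q, made with the help of COQ2 and kept reduced by AIFM2 (also called FSP1) at the plasma membrane and by DHODH in mitochondria, tetrahydrobiopterin, whose synthesis starts with GCH1, and the handling of iron and sulfur in mitochondria, in which NFS1 supplies sulfur for iron-sulfur clusters and CISD1 is a cluster protein of the outer membrane.

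CISD1 had the lowest and GCLM the highest HDL NP difference from PBS among the measured genes with a promoter sequence at hand. To show the sequence context of both, the 250 bases before the RefSeq start of CISD1 and GCLM are printed 5′ to 3′ on the strand of the gene, from the RefSeq annotation of GRCh38.p14. Capitals mark matches to 5 motifs that were searched on both strands. The CISD1 window is chr10:58268912-58269161 on the plus strand, and its capitals mark an E-box, which begins 35 bases before the start, and an NRF1 site, which begins 13 bases before it. The GCLM window is chr1:93909431-93909680 on the minus strand, and its capitals mark an antioxidant response element that begins 34 bases before the start.
CISD1: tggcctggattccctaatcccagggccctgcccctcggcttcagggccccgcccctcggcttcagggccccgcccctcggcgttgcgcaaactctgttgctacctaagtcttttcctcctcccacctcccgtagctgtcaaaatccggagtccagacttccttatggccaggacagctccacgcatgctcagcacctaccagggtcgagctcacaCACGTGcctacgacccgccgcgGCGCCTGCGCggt
GCLM: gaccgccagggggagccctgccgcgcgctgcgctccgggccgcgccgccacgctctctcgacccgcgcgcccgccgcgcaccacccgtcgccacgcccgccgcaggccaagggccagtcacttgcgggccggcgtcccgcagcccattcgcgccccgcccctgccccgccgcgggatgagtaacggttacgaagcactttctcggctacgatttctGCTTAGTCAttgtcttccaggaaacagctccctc

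Promoters of 7 of the 10 genes could be matched by symbol, and those of GSS, GSR and GCH1 could not. Each promoter was searched over 250 bases before the start, the part printed for CISD1 and GCLM, and 50 bases after it. The antioxidant response element (TGACNNNGC), the sequence bound by NRF2, matched in GCLM and in AIFM2, where it begins 22 bases before the start. It matched in 13.3% of all 35116 promoters. The AP-1 site (TGANTCA) matched in AIFM2 alone, where its letters lie within that element, against 7.71% of all promoters. The E-box (CACGTG) matched in CISD1 and, 159 bases before the start, in DHODH, against 7.26%. The NRF1 site matched in CISD1 alone, against 5.78%, and the sterol regulatory element (TCACNCCAC) in 0 of the 7, against 1.13%. A match describes letters in this window and was not tested for binding.

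The arrays were alike in depth of signal, with a mean intensity between 228 and 278 and 33.9% to 38.1% of probes above background (a detection p under 0.05). HDL NP replicate 1 stood apart, where 591 genes lay 1 log2 unit or more away from their mean after human HDL, against 0 to 9 on the other 8 arrays. The human HDL arrays, at 0, are themselves part of that mean. PBS arrays had 1 or 2 such genes, and HDL NP replicates 2 and 3 had 6 and 9. On HDL NP replicate 1, the 16 measured genes of a list of the mitochondrial respiratory chain had a median of −1.55 log2 units against the PBS mean and 10 housekeeping genes a median of 0.41, where the other arrays ranged from −0.10 to 0.04 and from −0.04 to 0.07. Of 10 B cell markers, 8 lay above background on every array, while 1 to 3 of 8 T cell markers and 1 to 3 of 8 myeloid markers did so on any array.

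Most of the probes gave weak signals. The lowest intensity that counted as above background was 95.3 to 103 on the different arrays. CISD1 was the exception, with intensities of 1338 to 2342 at its brighter probe, ILMN_2122953. The brightest probes of the other 8 measured genes lay between 109 (GCH1) and 380 (GCLM), at 1.13 to 3.85 times the background limit of the same array. Near background, each unit of intensity moves the log2 value more than it does for a bright probe, so the same spread in intensity is a wider spread in log2 units.

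**Figure D1:**
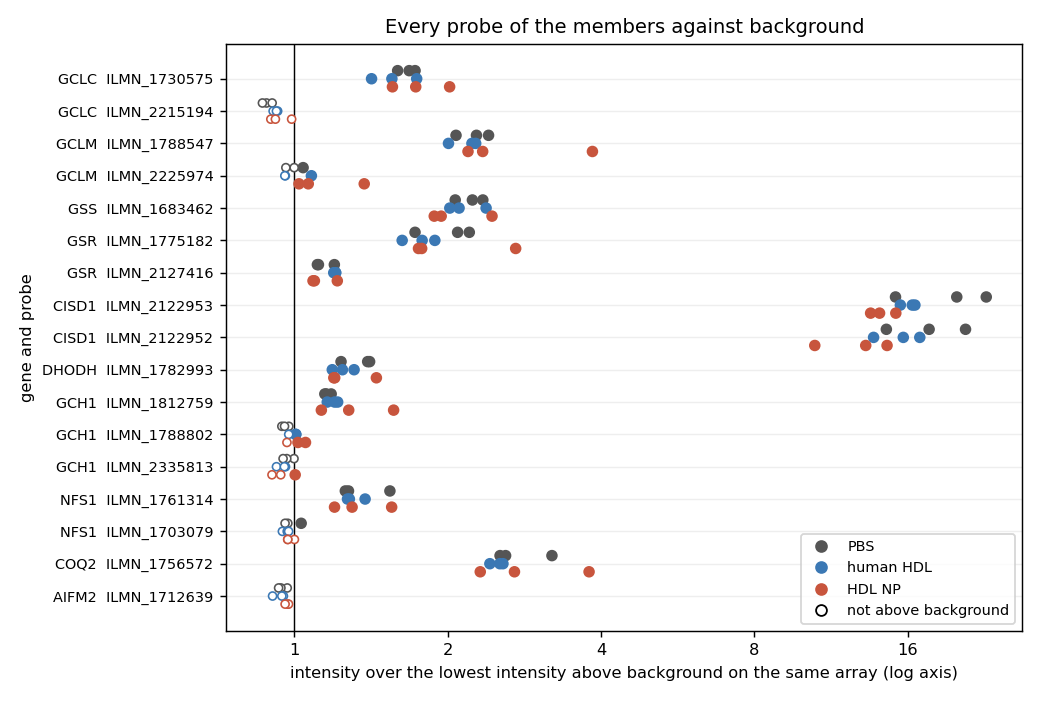
Intensity of all 17 probes of the 10 genes, divided by the lowest intensity above background on the same array (log axis), for PBS, human HDL and HDL NP arrays. Open circles are arrays on which the probe was not above background, which holds for all 9 arrays of AIFM2 and of the second GCLC probe, and only the CISD1 probes lie more than 4 times above the limit.

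After background correction and quantile normalization, 2 of the 9 measured genes, GSS and CISD1, had HDL NP arrays that did not overlap the PBS arrays, and lay below them. Such groups were found for 20.2% of all genes, so this count is near the background. None of the 9 passed an adjusted p under 0.05 in limma in any of the 3 comparisons, where 0.407% of all genes did for HDL NP against PBS, 0% for human HDL against PBS and 0.592% for HDL NP against human HDL, and the count was also 0 without HDL NP replicate 1. The log2 fold changes between HDL NPs and PBS ran from −0.42 for CISD1 to 0.30 for GCH1, with adjusted p between 0.24 and 0.99 (limma). The 95% intervals of the 9 genes reached from 0.592-fold to 1.54-fold of PBS at their widest. The study's own criterion asks for a fold change over 1.5 together with a p under 0.05 before adjustment. In this fit 0 of the 9 genes met it, against 2.52% of all genes for HDL NPs and 0.0388% for human HDL against PBS, and 2.98% for HDL NPs against human HDL. On the unadjusted p alone, 2 of the 9 qualified between HDL NPs and PBS, GSS and CISD1, where 15.4% of all genes did.

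**Figure D2:**
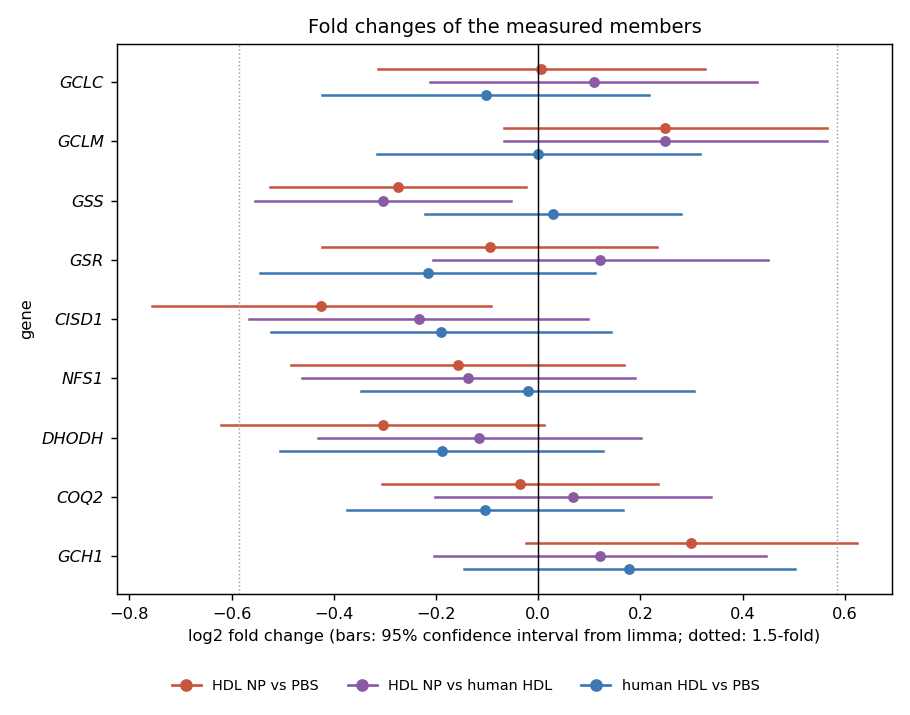
Log2 fold change of each of the 9 measured genes in the 3 comparisons, with 95% confidence intervals from limma, and the 1.5-fold limits dotted. Intervals cross 0 except those of GSS in both comparisons with HDL NPs and of CISD1 between HDL NPs and PBS, and the human HDL differences lie between −0.22 and 0.18.

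The catalytic subunit of glutamate-cysteine ligase, GCLC, had the smallest difference of the 9 genes between HDL NPs and PBS. On the log2 scale it stood at 6.37, 6.45 and 6.64 on the PBS arrays, at 6.32, 6.15 and 6.69 after human HDL and at 6.44, 6.46 and 6.58 after HDL NPs. The 3 groups overlapped, and the difference between HDL NPs and PBS was 0.01 (standard error 0.15, adjusted p = 0.99 from limma), with a 95% interval of −0.31 to 0.33. The other GCLC probe, ILMN_2215194, was above background on 0 of 9 arrays, with intensities of 85.3 to 94.3.

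GCLM, the modifier subunit that raises the enzyme's activity, was higher on some of the HDL NP arrays. Its values were 7.23, 7.22 and 7.18 after PBS, 7.26, 7.08 and 7.29 after human HDL, and 7.73, 7.49 and 7.15 after HDL NPs. HDL NP replicates 1 and 2 lay above every control array and replicate 3 below all but 1 of them. The mean difference from PBS was 0.25 with a standard error of 0.15 (limma, adjusted p = 0.42), which is 1.19-fold with a 95% interval of 0.955 to 1.48. Without replicate 1 it was 0.11. Against human HDL the difference was likewise 0.25 (adjusted p = 0.39 from limma), and 0.11 without replicate 1.

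The second GCLM probe, ILMN_2225974, reads close to background. It had intensities of 101, 103 and 92.0 after PBS, of 103, 96.0 and 92.0 after human HDL, and of 136, 98.7 and 102 after HDL NPs. It passed the detection limit on 1 PBS, 1 human HDL and all 3 HDL NP arrays. Without the HDL NP arrays it would not have met the filter of 3 arrays. Its log2 difference between HDL NPs and PBS was 0.46 with a standard error of 0.22 (limma over all kept probes, adjusted p = 0.41). Since the probe was kept through the group where it is high, this value lends no support to the brighter probe. No probe of the 10 genes passed the adjusted threshold in that fit, where 0.066% of kept probes did for HDL NPs and 0% for human HDL against PBS, and 0.181% for HDL NPs against human HDL. Both GCLM probes were highest on HDL NP replicate 1.

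Whether the subunits of the ligase shifted against each other was asked array by array. The log2 value of GCLM minus that of GCLC was 0.86, 0.77 and 0.54 on the PBS arrays, 0.94, 0.94 and 0.60 after human HDL, and 1.29, 1.03 and 0.57 after HDL NPs. The means were 0.72 ± 0.16, 0.82 ± 0.20 and 0.96 ± 0.36 (SD, n = 3 each). An exact permutation test (two-sided) of the difference between HDL NPs and PBS, 0.24, gave p = 0.4, and 3 arrays against 3 cannot give less than 0.1. Without HDL NP replicate 1 it was 0.08.

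GSS, which adds glycine in the second step of glutathione synthesis, was the lowest after HDL NPs. Its values were 7.19, 7.16 and 7.17 after PBS, 7.36, 7.09 and 7.16 after human HDL, and 6.85, 6.99 and 6.86 after HDL NPs. All 3 HDL NP arrays lay below all 6 control arrays. The difference was −0.27 from PBS with a standard error of 0.12 (limma, adjusted p = 0.29, 0.034 unadjusted) and −0.30 from human HDL (limma, adjusted p = 0.24, 0.022 unadjusted). Neither passed the threshold, and 22.6% of all genes had groups that did not overlap between HDL NPs and human HDL.

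The place of HDL NP replicate 1 in the GSS result depended on the scaling between arrays. As deposited, the intensities were 216, 241 and 198 after PBS, 227, 202 and 202 after human HDL, and 242, 182 and 185 after HDL NPs, so that replicate 1 was the highest of the 9. With arrays scaled to a common median in place of quantile normalization, HDL NP replicates 1, 2 and 3 stood at 0.20, −0.39 and −0.31 log2 units from the PBS mean, the groups overlapped, and the difference was −0.17. Quantile normalization of all 9 arrays, with replicate 1 left out of the fit only, gave −0.25. In the second deposited table, whose unit is not stated, the GSS groups of HDL NPs and PBS did not overlap (−0.57), while those of HDL NPs and human HDL did (−0.40).

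GSR, which regenerates reduced glutathione with NADPH, overlapped between all conditions at its brighter probe. The values of that probe, ILMN_1775182, were 7.17, 6.92 and 6.71 after PBS, 6.83, 6.56 and 6.75 after human HDL, and 7.05, 6.80 and 6.66 after HDL NPs. The difference between HDL NPs and PBS was −0.09 (standard error 0.15, adjusted p = 0.78 from limma) and that between human HDL and PBS −0.22.

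The dimmer GSR probe ordered the conditions differently. ILMN_2127416 stood at 5.12, 5.33 and 5.17 after PBS, at 5.47, 5.56 and 5.49 after human HDL, and at 4.81, 5.10 and 5.45 after HDL NPs. Here the human HDL arrays were the highest, and HDL NPs differed from human HDL by −0.39 (limma over all kept probes, adjusted p = 0.31, 0.029 unadjusted), where the brighter probe gave 0.12. Between HDL NPs and PBS both probes gave −0.09, but in the comparisons with human HDL they disagreed in sign, and no direction is given there for the gene.

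CISD1, or mitoNEET, the iron-sulfur protein of the outer mitochondrial membrane, had the largest difference among the 9 genes between HDL NPs and PBS. Its brighter probe stood at 10.83, 10.89 and 10.57 after PBS, at 10.59, 10.53 and 10.60 after human HDL, and at 10.00, 10.52 and 10.50 after HDL NPs. The HDL NP arrays were below all 6 control arrays, though replicate 2 lay just under the lowest of them, human HDL replicate 2. Against human HDL this separation was lost at the other probe and in the mean of both, and in the second deposited table, whose unit is not stated, the groups overlapped in both comparisons. Over all genes, 20.2% had groups that did not overlap between HDL NPs and PBS, and 22.6% between HDL NPs and human HDL. HDL NPs differed from PBS by −0.42 with a standard error of 0.15 and a 95% interval of −0.76 to −0.09 (limma, adjusted p = 0.24, 0.016 unadjusted), which is 1.34-fold lower.

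The other CISD1 probe, ILMN_2122952, ran the same way. Its values were 10.66, 10.71 and 10.50 after PBS, 10.52, 10.37 and 10.63 after human HDL, and 9.55, 10.41 and 10.44 after HDL NPs, a difference from PBS of −0.49 with a standard error of 0.21 (limma over all kept probes, adjusted p = 0.35). Replicate 1 was the lowest at both probes. Without it the brighter probe was at −0.25 against PBS (adjusted p = 0.35 from limma) and at −0.06 against human HDL, from −0.23 with all arrays. The respiratory chain genes were low on the same array (a median of −1.55), and their part in the CISD1 value was not tested.

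NFS1, the cysteine desulfurase that supplies sulfur to new iron-sulfur clusters, varied as much among PBS arrays as between conditions. It stood at 5.63, 6.15 and 5.78 after PBS, at 5.97, 5.81 and 5.72 after human HDL, and at 5.83, 5.54 and 5.71 after HDL NPs. The difference between HDL NPs and PBS, −0.16 (standard error 0.15, adjusted p = 0.62 from limma), was within that spread, and the second probe, ILMN_1703079, was above background on 1 PBS array only.

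**Figure D3:**
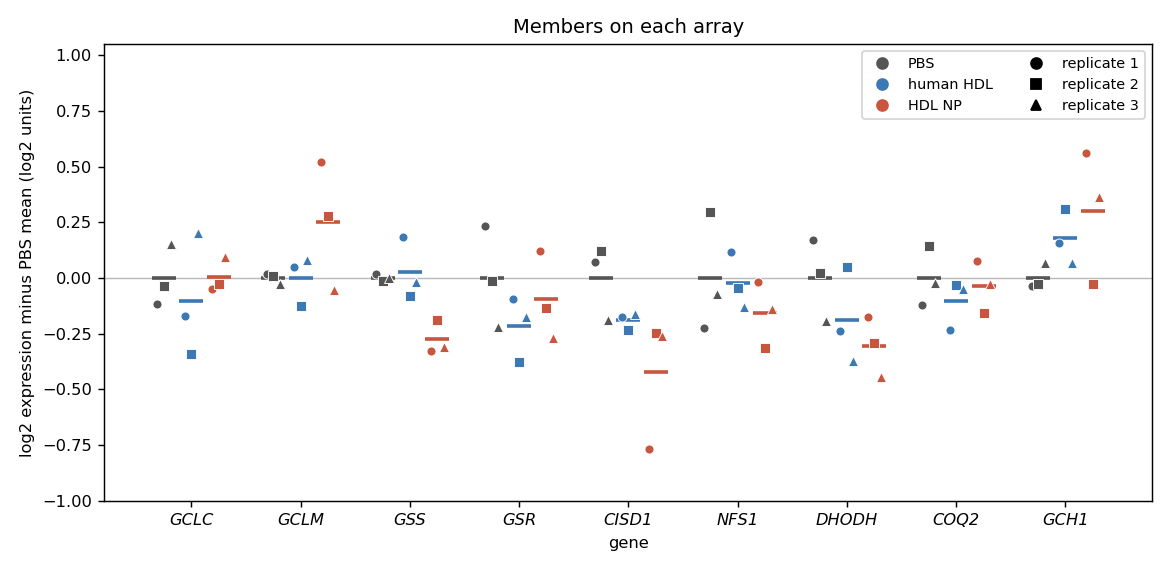
Log2 expression of the 9 measured genes on each of the 9 arrays, relative to the PBS mean of the gene, with symbols for the replicate and bars for the mean of the condition. The HDL NP arrays of GSS and CISD1 lie below all control arrays, while those of GCLM and GCH1 spread from about the PBS mean to more than 0.5 log2 units above it.

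DHODH, the mitochondrial enzyme that makes orotate for pyrimidines and passes the electrons to coenzyme Q, had negative mean differences from PBS after both particles. Its values were 5.999, 5.85 and 5.64 after PBS, 5.59, 5.88 and 5.46 after human HDL, and 5.66, 5.54 and 5.38 after HDL NPs. The arrays overlapped, with differences from PBS of −0.30 for HDL NPs (limma, standard error 0.15, adjusted p = 0.34, 0.058 unadjusted) and −0.19 for human HDL. Leaving out 1 array moved the human HDL value between −0.31, when human HDL replicate 2 was omitted, and −0.096, when replicate 3 of that group was, and it was −0.10 without PBS replicate 1. Against each other the particles differed by −0.12, with a 95% interval of −0.43 to 0.20.

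COQ2, the prenyltransferase that joins the side chain to the ring of coenzyme Q, showed no difference beyond its replicates. It stood at 7.50, 7.77 and 7.60 after PBS, at 7.39, 7.59 and 7.57 after human HDL, and at 7.70, 7.46 and 7.59 after HDL NPs. The difference between HDL NPs and PBS was −0.04 (standard error 0.12, adjusted p = 0.90 from limma), with a 95% interval of −0.31 to 0.23.

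AIFM2, the oxidoreductase FSP1 that returns coenzyme Q to its radical-trapping form, gave no usable signal. Its single probe, ILMN_1712639, had intensities of 89.0 to 96.6 after PBS, 87.1 to 94.5 after human HDL and 91.5 to 96.0 after HDL NPs, with detection p between 0.12 and 0.70. It was not above background on any array, so its level had only an upper bound and no fold change is given. The array does not show whether the transcript was absent or below what this probe detects.

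GCH1, the GTP cyclohydrolase that commits GTP to tetrahydrobiopterin, had the highest difference among the 9 genes. Its brightest probe, ILMN_1812759, stood at 5.25, 5.26 and 5.36 after PBS, at 5.45, 5.60 and 5.36 after human HDL, and at 5.85, 5.27 and 5.66 after HDL NPs. Every human HDL array lay above every PBS array, though by less than the rounding shows. In that comparison 9.18% of all genes had groups that did not overlap. With median scaling (0.11) and in the second deposited table (0.18), the human HDL and PBS arrays of GCH1 overlapped. HDL NP replicate 2 fell among the PBS arrays. The differences from PBS were 0.30 for HDL NPs (limma, standard error 0.15, adjusted p = 0.36, 0.067 unadjusted) and 0.18 for human HDL, and the former was 0.17 without HDL NP replicate 1.

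The probes of GCH1 are annotated to different transcripts of the gene. ILMN_1788802 was above background on 0 PBS, 2 human HDL and 2 HDL NP arrays. Over the background level of the PBS arrays, the HDL NP mean stood at 1.01-fold and the human HDL mean at 0.995-fold. Each mean includes an array that was not above background, so neither ratio bounds a difference from PBS. ILMN_2335813 passed on 1 array, HDL NP replicate 2. No statement on the transcripts follows from signals this close to background.

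Human HDL, the native particle given at the same concentration, left no measured gene past the threshold against PBS. At the brightest probe of each gene, the log2 fold changes ran from −0.22 for GSR, whose dimmer probe gave 0.30, to 0.18 for GCH1, and limma gave an adjusted p of 0.9999 for all 9 genes. At an unadjusted p under 0.05, 0 of the 9 qualified, against 2.31% of all genes. The 95% intervals of the 9 genes reached from 0.686-fold to 1.42-fold. Between HDL NPs and human HDL the changes ran from −0.30 for GSS to 0.25 for GCLM, with adjusted p of 0.24 to 0.80 (limma), and the HDL NP arrays are the same as in the comparison with PBS.

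The 9 measured genes did not move as a block. Between HDL NPs and PBS, 3 had positive and 6 negative differences, with a median of −0.09 log2 units against 0.03 over all genes, and the median size of a difference was 0.25 against 0.16. Without HDL NP replicate 1 their median was −0.20. Between HDL NPs and human HDL, the median size of a difference was 0.12 for the same 9 genes, against 0.16 over all genes. Between human HDL and PBS these genes were at 0.10, against 0.08. Their median on each array, relative to PBS, was −0.02, −0.16 and −0.14 on HDL NP replicates 1, 2 and 3, and −0.10, −0.08 and −0.05 on the human HDL arrays. With median scaling, HDL NP replicate 1 instead had 8 of the 9 genes above the PBS mean, all but CISD1, and a median of 0.46, on an array whose median over all genes was 0.45. The same scaling put HDL NP replicates 2 and 3 at −0.38 and −0.14, on arrays whose medians over all genes were −0.17 and −0.027. It put the human HDL arrays at −0.16, −0.18 and −0.15, and the PBS arrays between −0.18 and 0.16. The medians of HDL NP replicate 1 and of the other HDL NP arrays thus lay on opposite sides of PBS under that scaling, as did the medians over all genes. CISD1 was below its PBS mean on all 3 HDL NP arrays under both scalings, as it was on all 3 human HDL arrays and on PBS replicate 3.

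The neighbouring genes of each pathway were read from lists of 7 to 25 genes. In none of the 3 comparisons did any gene of the 6 lists pass the adjusted threshold in limma, in either direction, with all arrays or, as added after seeing the data, without HDL NP replicate 1. Of 25 genes of glutathione use and turnover, 21 were measured, with a median difference between HDL NPs and PBS of −0.11 log2 units and a range of −0.50 to 0.29, and 1 had an unadjusted p under 0.05, HAGH (−0.38, adjusted p = 0.29 from limma), a hydrolase of the glyoxalase system that releases glutathione. HAGH was at −0.18 without HDL NP replicate 1. All 13 listed genes of coenzyme Q synthesis were measured, with a median of −0.04. Their 1 gene at an unadjusted p under 0.05 was COQ3 (−0.39, adjusted p = 0.25 from limma), a methyltransferase of the pathway, at −0.23 without that array. HAGH and COQ3 are named here because they are the whole of a count, after their values were seen.

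Around GCH1, 5 of 7 genes of tetrahydrobiopterin synthesis and recycling were measured, and their median difference between HDL NPs and PBS was −0.37 log2 units. Without HDL NP replicate 1, the array with low respiratory chain genes (a list at a median of −0.50 in this comparison with all arrays and −0.0090 without that one), the median was −0.049. QDPR, which recycles the cofactor, was at 8.001 ± 0.16 (SD, n = 3) after HDL NPs, 8.48 ± 0.08 after human HDL and 8.51 ± 0.09 after PBS, a difference from PBS of −0.51 with no overlap (adjusted p = 0.090 from limma). It was chosen after its values were seen, as was GCHFR, the regulator that binds GCH1, which met the study's criterion in HDL NPs against human HDL (−0.73, unadjusted p = 0.041, adjusted p = 0.29 from limma) with an SD of 0.90 among HDL NP arrays. Without HDL NP replicate 1, QDPR was at −0.42 against PBS and GCHFR at −0.21 against human HDL.

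Around NFS1 and CISD1, 21 of 25 genes of iron-sulfur cluster assembly were measured, with a median of −0.05 log2 units between HDL NPs and PBS. FDX2, a ferredoxin that supplies electrons for cluster assembly, met the study's criterion, at 7.13 ± 0.57 (SD, n = 3) after HDL NPs against 7.74 ± 0.06 after PBS, which is 1.53-fold lower (log2 fold change −0.61, unadjusted p = 0.014, adjusted p = 0.23 from limma). Without HDL NP replicate 1, on which the respiratory chain genes were also low, it was −0.29 and no longer met the criterion. The part of those genes in the value was not tested. The other genes with an unadjusted p under 0.05, named after their values were seen, were NUBP1 (−0.56, adjusted p = 0.078 from limma), ISCA2 (−0.43, adjusted p = 0.13) and NFU1 (−0.29, adjusted p = 0.32). NUBP1 is a scaffold of the cytosolic machinery, and ISCA2 and NFU1 act late in the mitochondrial one. Those 4 of 21 genes stand against 15.4% of all genes at that p. In the list 6 genes had HDL NP arrays that did not overlap the PBS arrays, where 20.2% of all genes did: these 4 and BOLA3 (−0.57) were lower, and MMS19 (0.31), part of the cytosolic machinery, was higher. NUBP1, ISCA2 and NFU1 were at −0.45, −0.40 and −0.30 without HDL NP replicate 1. BOLA3 was at −0.13 and MMS19 at 0.13 without that array.

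**Figure D4:**
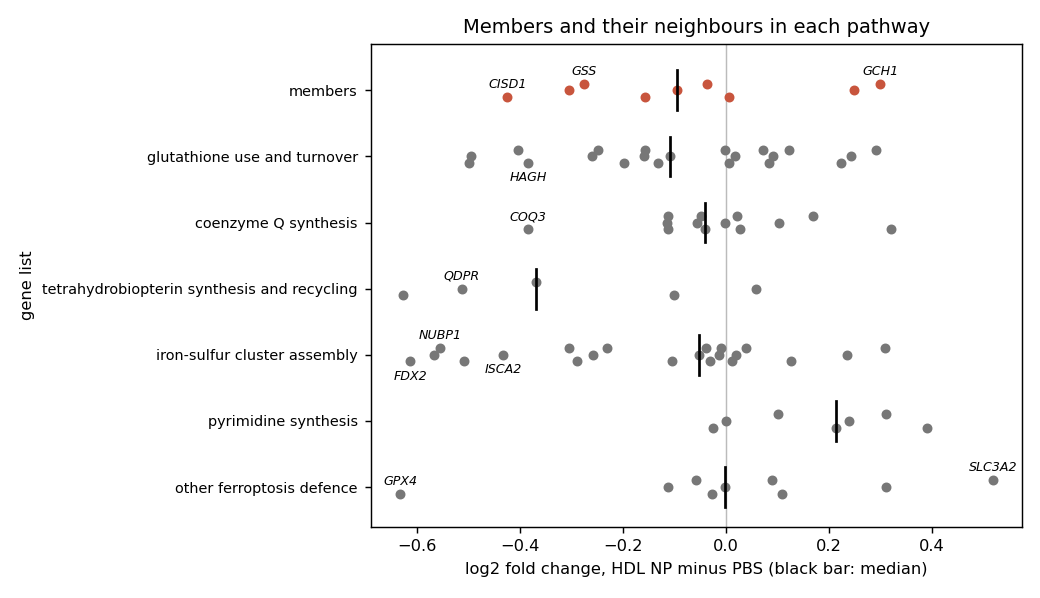
Log2 fold change between HDL NPs and PBS for the 9 measured genes (top line) and for the measured genes of 6 neighbouring lists. The median of each is a black bar. Names mark the genes at an unadjusted p under 0.05 except NFU1, which is not named, and GCH1 as the highest of the 9. With all 9 arrays the medians lie between −0.37 for tetrahydrobiopterin genes and 0.21 for pyrimidine genes, and no gene shown passed the adjusted threshold in limma.

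The 7 genes of pyrimidine synthesis around DHODH had a median of 0.21 log2 units, from −0.02 to 0.39, with 0 at an unadjusted p under 0.05, and a median of 0.061 without HDL NP replicate 1. DHODH itself was at −0.30, and −0.37 without that array. Of 11 other genes of ferroptosis defence, 9 were measured. GPX4, the peroxidase that spends glutathione, met the study's criterion in HDL NPs against PBS (−0.63, adjusted p = 0.078 from limma), and without HDL NP replicate 1, at −0.47, did not reach its fold. The 1 other gene at an unadjusted p under 0.05 was SLC3A2 (0.52, adjusted p = 0.17 from limma), a subunit of the cystine importer that feeds glutathione synthesis, named after its values were seen and at 0.31 without that array.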

How the data were processed

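For each probe of 9 arrays the authors deposited an intensity (the mean over beads) with its detection p-value, neither background subtracted nor normalized between arrays; the scanner software is not given in the sources used here. A second deposited table holds other values of unstated unit, scale and centring (column medians 2.97 to 3.44), used only as an alternative. Intensities were processed with limma 3.58.1 in R 4.3.3: neqc (normexp against negative controls that it infers from detection p-values, offset of 16, quantile normalization, log2). Probes were kept if their detection p was under 0.05 on 3 or more arrays. The kept probe with the highest mean stood for its gene, by symbols of the platform annotation (30113 probes with 1 symbol, 8 with several, 17202 not analysed under a name). Conditions were taken from the labels. The control arrays are labelled NT and were read as the PBS treatment that the study's methods describe. The conditions were fitted over all 9 arrays by lmFit and eBayes (12.3 total degrees of freedom). Benjamini-Hochberg adjustment was over all 10307 genes, or all kept probes for probe results. The number of arrays limits the precision. Genes, lists and tests were chosen with earlier results of these data known. Named genes are the 10 genes and, per list, up to 4 past the adjusted threshold or the study's criterion in HDL NPs against PBS; others are marked as named after their values were seen. The limma fit was tested on simulated log2 values, in which a gene had the same spread on every array. The steps before the fit were not tested in this way, nor was an array that stands apart as HDL NP replicate 1 does. Alternatives were another background correction or offset, median scaling, the second table, other filters, probe means, a replicate block, array weights, Student's test, fits without the group not compared and leaving out each array.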

Additional observations from a re-analysis of the deposited data

How the results depend on the processing

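No alternative called a gene of the 10 in human HDL against PBS, and in the comparisons with HDL NPs only the REML array weights did, an estimate that did not converge and was added after seeing the data: it called 1 in HDL NPs against PBS, DHODH (−0.44, adjusted p = 0.040 from limma), and 1 in HDL NPs against human HDL, GSS (−0.33, adjusted p = 0.037 from limma). Over all 10307 genes, the same estimate called 863 in HDL NPs against PBS and 1128 in HDL NPs against human HDL. Beside those totals stands 1 of the 9 measured genes in each comparison. The estimate gave HDL NP replicate 1 a weight of 0.14 and replicate 3 a weight of 3.87.

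Over all genes, the calls in HDL NPs against PBS, 42, became 111 with no background correction, 120 with an offset of 50, 2 with median scaling, 0 with the second table, 195 with array weights (863 by REML), 4 with only the groups compared fitted and 1 with Student's test, and in HDL NPs against human HDL, 61 became 95, 94, 3, 0, 249 (1128), 5 and 0, with 40 for the mean over kept probes of a gene. Leaving out 1 array gave 4 (without PBS replicate 2) to 124 (without HDL NP replicate 2) and 4 (without human HDL replicate 2) to 218 (without HDL NP replicate 2).

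Median scaling moved the median of all genes by 0.12 log2 units, to 0.15, in HDL NPs against human HDL, and by 0.052 and −0.070 in HDL NPs and human HDL against PBS. Under it the sign turned for GSR (0.015) and COQ2 (0.051) in HDL NPs against PBS, for GCLM (−0.089) and GSS (−0.059) in human HDL against PBS, and for DHODH (0.061) and NFS1 (0.050) in HDL NPs against human HDL. With the second table it turned for GSS (−0.16), NFS1 (0.063) and COQ2 (0.23) in human HDL against PBS, and for GSR (−0.064) and COQ2 (−0.45) in HDL NPs against human HDL. The mean of the probes turned GSR in both comparisons with human HDL (0.043 against PBS, −0.13 for HDL NPs). Array weights turned GCLM (−0.0059, REML −0.0011) and NFS1 (0.051, REML 0.022) in human HDL against PBS and, by REML, GSR (−0.028) in HDL NPs against human HDL. None of these values passed the threshold, and the cause was not tested. Leaving out 1 array took across 0 GCLC (−0.052 to 0.083), GSR (−0.20 to 0.023) and COQ2 (−0.10 to 0.036) in HDL NPs against PBS, GCLC (−0.26 to 0.017), GCLM (−0.039 to 0.064), GSS (−0.049 to 0.083) and NFS1 (−0.13 to 0.13) in human HDL against PBS, GCLC (−0.011 to 0.26), DHODH (−0.21 to 0.0029) and GCH1 (−0.0094 to 0.28) in HDL NPs against human HDL. GCLM minus GCLC ranged from 0.078 to 0.44 in HDL NPs against PBS, from 0.012 to 0.22 in human HDL against PBS and from −0.025 to 0.34 in HDL NPs against human HDL.

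Deviations of same-numbered samples from the means of their conditions correlated at −0.08 to 0.17 over 9 pairs, 4 above 0.1. Differently numbered samples were not compared, so these values do not settle whether the numbers mark pairs. The labels do not state that they do, and the numbers were not read as pairs. With the replicate number as a block, 13 genes were called in HDL NPs against PBS and 0 of the 10, and it turned no value of theirs.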
